A study of Mus musculus with 12 samples.

Results

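The genes described here are 9 genes of tendon and of the joint surface, Tnmd, Scx, Mkx, Thbs4, Prg4, Cilp, Cilp2, Chodl and Cytl1, out of 19937 genes with a probe set of a single symbol. A gene was represented by the probe set that the platform annotation gives its symbol alone, and by the one with the highest mean over the 12 arrays where there were several; each of the 9 had 1 such probe set, so no choice was made between probe sets. The names were chosen by a reading of earlier results on these arrays, which covered levels in the 4 groups and in single osteoblast arrays, so these values are a description and the tests below are outcomes of a fit of the whole table, not independent support. The measurements are log2 values of Affymetrix Mouse Gene 1.0 ST arrays. Female C57BL/6 mice were used, and osteoblasts and endothelial cells came from their long bones by sorting. Tumor-bearing mice had received 500000 cells of EO771, a mouse mammary cancer line, into the heart, and the cells grew in the long bones for about 2 weeks, while tumor-free mice served as controls. The labels give no age and do not say whether tumor-free mice received an injection. Osteoblasts were gated as CD51+ cells negative for GFP, TR119, CD45, SCA1 and CD31, and endothelial cells as SCA1+ and CD31+ cells negative for GFP, TR119 and CD45. Each of the 4 groups had 3 arrays, called biological replicates in the labels, each from RNA of 5000 cells. The design text gives 6 to 10 samples without saying whether mice were pooled.

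Tendon joins muscle to bone through parallel collagen fibres made by tenocytes. Its cells are specified by the transcription factors scleraxis (Scx) and Mohawk (Mkx), and their mature form carries the membrane protein tenomodulin (Tnmd) and deposits the matrix protein thrombospondin 4 (Thbs4). The surface of joint cartilage and the synovial lining release lubricin (Prg4), a glycoprotein that keeps the surfaces from sticking. Cartilage intermediate layer protein (Cilp) is a matrix protein of articular cartilage and tendon that can bind TGF-beta, Cilp2 is its relative, Cytl1 encodes a small secreted protein of cartilage, and Chodl encodes chondrolectin, a membrane protein of the C-type lectin family. Tendon, ligament and joint cartilage lie directly on long bones.

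Genes that mark the 2 cell types separated the arrays by their labels. The junction gene Cdh5 of endothelium lay between 5.54 and 6.23 in the 6 osteoblast arrays and between 11.39 and 11.91 in the 6 endothelial arrays, and Pecam1, which encodes CD31, between 5.70 and 6.90 and between 10.68 and 10.99. The osteoblast genes Alpl (9.77 to 10.67 against 5.81 to 6.47) and Sp7 (7.73 to 8.75 against 5.51 to 6.18) lay the other way, as did Itgav, which encodes CD51 (8.61 to 9.38 against 6.88 to 8.33). Array medians lay between 5.95 and 6.04, and the 40th percentile of an array, used below as a rough floor, between 5.51 and 5.61. All 9 genes exceeded it in at least 3 of 12 arrays and were among the 14217 genes tested; Tnmd and Chodl did so in 5 arrays, all from osteoblasts. Since each array measures a bulk of sorted cells, fewer cells of a type and less RNA per cell cannot be told apart in any value below.

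Tnmd and Chodl had the widest range over the osteoblast arrays. Tnmd measured 7.38, 7.36 and 7.12 in replicates 1, 2 and 3 of tumor-free osteoblasts, and 9.61, 10.15 and 5.14 in those of tumor-bearing mice. In endothelial cells it measured 5.25, 5.22 and 5.33 without tumor and 5.17, 5.35 and 5.45 with tumor. So the tumor-free osteoblasts were close to each other, replicates 1 and 2 of the tumor-bearing osteoblasts were above them by at least 2.23, and replicate 3 of the tumor-bearing osteoblasts was below all 6 endothelial arrays. The highest and the lowest osteoblast array were 32.1-fold apart, on an array scale that understates folds near the floor.

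Chodl had the same order of groups. Its values were 6.87, 5.96 and 7.14 in tumor-free osteoblasts and 8.42, 9.07 and 4.13 in tumor-bearing osteoblasts, where replicates 1 and 2 were again above and replicate 3 again below. In endothelial cells it stayed between 3.88 and 4.23, a range that holds the value of tumor-bearing replicate 3. Over the 6 osteoblast arrays the root mean square difference between Tnmd and Chodl, each centred on its own mean, was 0.48, the smallest of all tested genes for either of them.

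Thbs4, the thrombospondin of tendon and muscle matrix, was high in osteoblast arrays and varied in the same direction. It measured 9.23, 8.61 and 10.01 in tumor-free osteoblasts and 10.50, 10.68 and 7.18 in tumor-bearing osteoblasts. Here replicate 3 of the tumor-bearing mice was the lowest osteoblast array as well, yet it remained 1.36 above the brightest endothelial array, since endothelial values lay between 5.35 and 5.82.

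**Figure D1:**
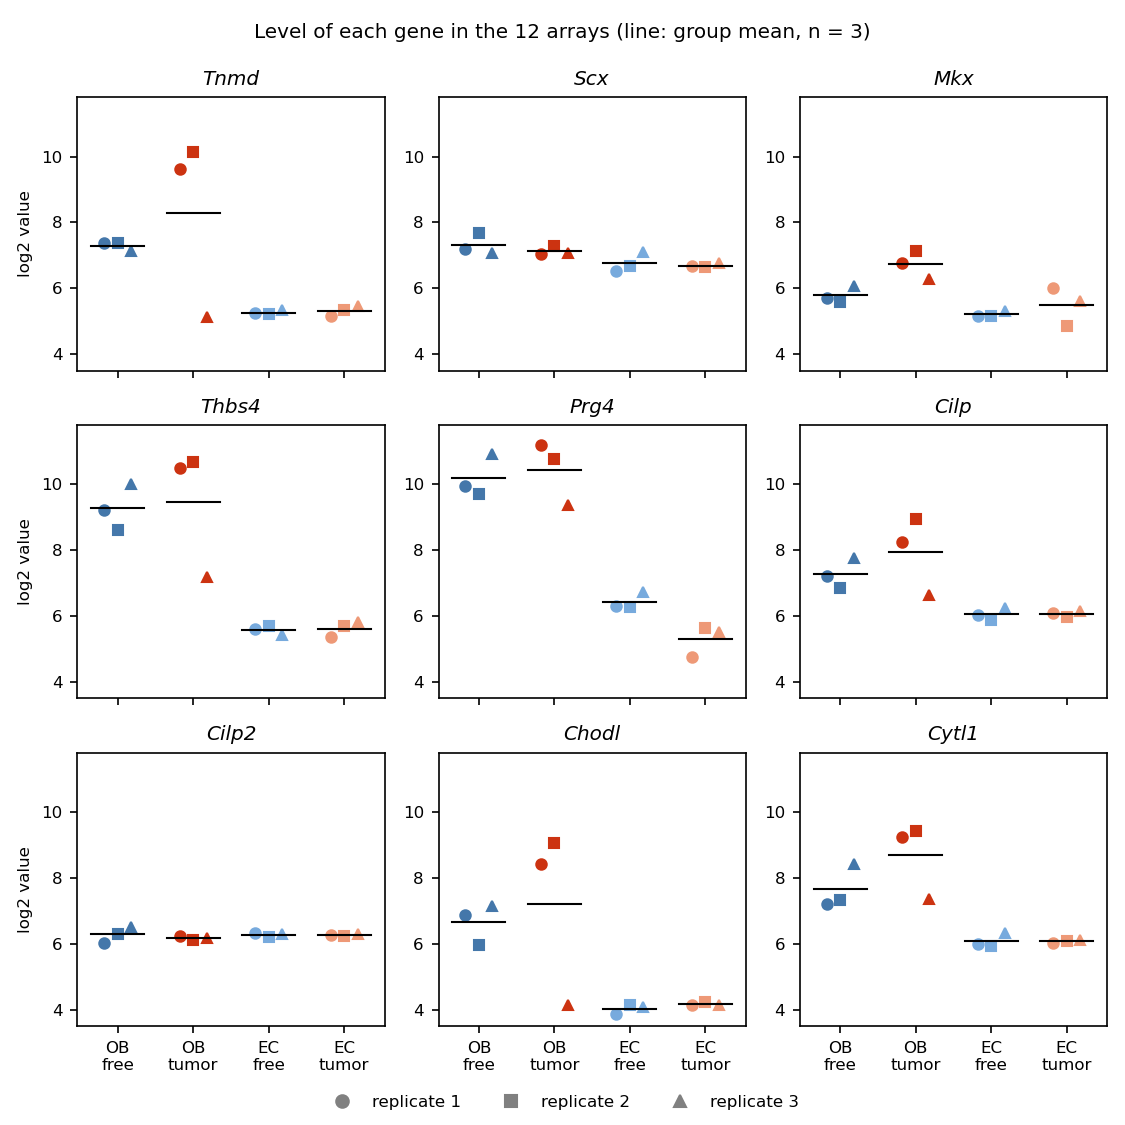
Log2 value of the 9 genes in each of the 12 arrays, by group (OB osteoblasts, EC endothelial cells; free and tumor for tumor-free and tumor-bearing mice); symbols mark the replicate and lines the mean of 3 arrays. In Tnmd and Chodl, tumor-bearing osteoblast replicate 3 (5.14 and 4.13) lies at the endothelial level, while replicates 1 and 2 lie above every tumor-free array.

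The transcription factors had smaller values of this kind. Mkx measured 5.69, 5.58 and 6.08 in tumor-free and 6.77, 7.13 and 6.29 in tumor-bearing osteoblasts, so that the 3 arrays of tumor-bearing mice, replicate 3 included, lay above the 3 tumor-free arrays. In endothelial cells it measured 5.16, 5.17 and 5.32 without tumor and 6.02, 4.87 and 5.61 with tumor, and the endothelial and tumor-free osteoblast arrays overlapped. Scx, which acts early in tendon formation, differed little: 7.20, 7.68 and 7.08 in tumor-free osteoblasts, 7.04, 7.28 and 7.08 in tumor-bearing osteoblasts, and 6.53 to 7.11 over the endothelial arrays. Its osteoblast and endothelial arrays overlapped, by way of tumor-free endothelial replicate 3 at 7.11.

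Prg4, the lubricin gene, was far above endothelium in each osteoblast array. The tumor-free osteoblasts measured 9.96, 9.72 and 10.91 and the tumor-bearing osteoblasts 11.19, 10.76 and 9.38, so the groups overlapped and the lowest array was again tumor-bearing replicate 3. The endothelial arrays measured 6.30, 6.27 and 6.74 in tumor-free and 4.77, 5.63 and 5.53 in tumor-bearing mice. These 2 endothelial groups did not overlap, with the tumor-free arrays higher by at least 0.64.

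Cilp and Cytl1, which encode secreted proteins of cartilage, took intermediate places. Cilp measured 7.22, 6.86 and 7.76 in tumor-free and 8.24, 8.94 and 6.65 in tumor-bearing osteoblasts, against 5.88 to 6.23 in endothelial cells. Cytl1 measured 7.22, 7.34 and 8.44 in tumor-free and 9.25, 9.43 and 7.37 in tumor-bearing osteoblasts, against 5.93 to 6.32. For both genes the tumor-bearing replicates 1 and 2 were the 2 highest of the 6 osteoblast arrays, and for Cytl1 the lowest was tumor-free replicate 1. Cilp2 had no such pattern: its 12 values lay between 6.02 and 6.52, both ends of which were tumor-free osteoblasts. Its tumor-bearing osteoblasts (6.12 to 6.24) lay just below its tumor-bearing endothelial cells (6.25 to 6.29), and the other pairs of groups overlapped. The range over the osteoblast arrays was 0.51 and that over the endothelial arrays 0.13.

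In the order of group means, 6 genes (Tnmd, Thbs4, Cilp, Chodl, Cytl1 and Mkx) had tumor-bearing osteoblasts first, tumor-free osteoblasts second and both endothelial groups after them. Of neighbours in that order, tumor-bearing and tumor-free osteoblasts overlapped in 5 of the 6, Mkx being the exception. The 3 tumor-free osteoblast arrays lay above all 6 endothelial arrays for 6 of the 9 genes (Tnmd, Thbs4, Prg4, Cilp, Chodl and Cytl1), as they did for 8.62% of all genes. Of these 6, Tnmd and Chodl passed the filter through osteoblast arrays alone. Prg4 had tumor-bearing osteoblasts, tumor-free osteoblasts, tumor-free endothelium and tumor-bearing endothelium, and overlapped in the first pair alone. For Scx and Cilp2 each pair of neighbours overlapped.

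The cell types were compared separately in mice without and with tumor, as a description. In tumor-free mice the osteoblast minus endothelial difference (log2, with the standard error of a limma fit of all 12 arrays, 3 against 3) was 3.76 ± 0.46 for Prg4, 3.71 ± 0.76 for Thbs4, 2.62 ± 0.99 for Chodl and 2.02 ± 0.99 for Tnmd. Cytl1 differed by 1.58 ± 0.49 and Cilp by 1.23 ± 0.46, and Mkx and Scx by 0.57 ± 0.29 and 0.55 ± 0.18. Cilp2, at 0.01 ± 0.12, did not differ beyond its error.

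In tumor-bearing mice the difference was 5.14 ± 0.46 for Prg4, 3.83 ± 0.76 for Thbs4, 3.03 ± 0.99 for Chodl and 2.98 ± 0.99 for Tnmd. With limma at an adjusted p of 0.05, 2 of the 9 (Thbs4 and Prg4) were higher in osteoblasts of tumor-free mice, beside 5.38% of all genes tested, and 5 (these, Mkx, Cilp and Cytl1) in tumor-bearing mice, beside 4.89%. Without replicate 3 of the tumor-bearing osteoblasts these counts were 6 and 7, beside 5.77% and 4.68%. Tnmd and Chodl, counted in both, passed the filter through osteoblast arrays alone, so their place in these counts is a description. From the 6 arrays of the compared groups alone the counts were 6 and 2, beside 644 and 571 of the 14217 genes tested. Without tumor-bearing osteoblast replicate 1 or 2 or tumor-bearing endothelial replicate 2 the count in tumor-bearing mice was 3. Beside it, 537, 568 and 507 of the 14217 genes were higher in these 3 fits. Tnmd and Chodl, with 2 of the larger differences, were among those not passing, and their standard error of 0.99 is from a fit that holds the low tumor-bearing replicate 3. The 6 osteoblast arrays lay above the 6 endothelial arrays for 4 genes (Thbs4, Prg4, Cilp and Cytl1), beside 5.38% of the genes tested.

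**Figure D2:**
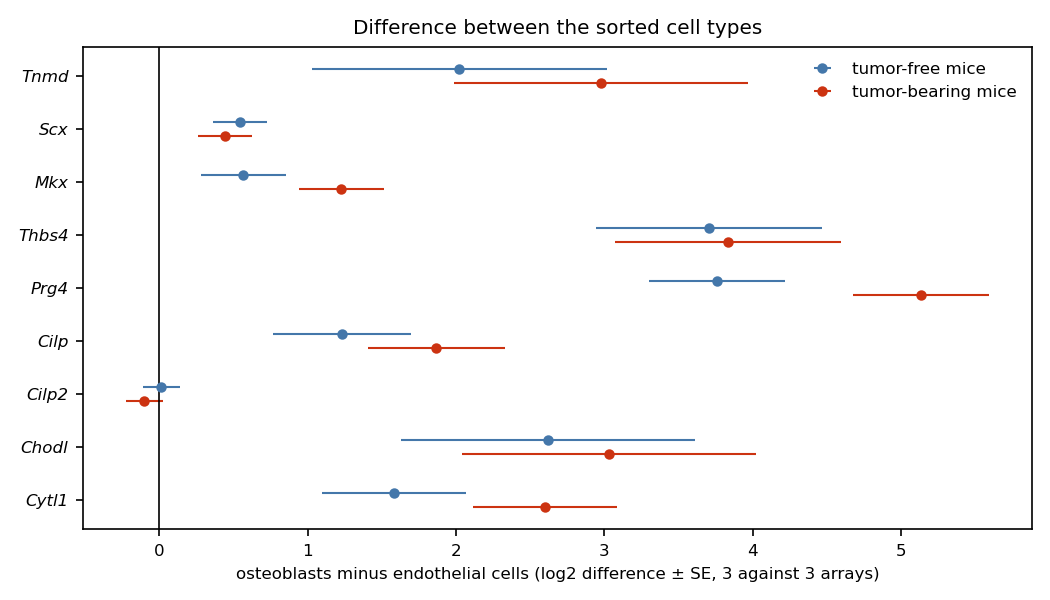
Difference between osteoblasts and endothelial cells (log2, points) with its standard error (bars) for the 9 genes, in tumor-free and in tumor-bearing mice, 3 against 3 arrays each. Prg4 and Thbs4 stand farthest to the right at 3.76 and 3.71 in tumor-free mice, and Cilp2 lies at 0 within its error.

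Tumor-bearing osteoblasts set against tumor-free osteoblasts, the first comparison of the design, gave 0 of 9 genes past a limma adjusted p of 0.05, beside 0.0563% of all genes tested. At an unadjusted p under 0.05 there was 1, Mkx, beside 9.78%. Mkx was higher by 0.94 ± 0.29 (SE, 3 against 3 arrays), with a limma adjusted p of 0.336 and a range of 0.225 to 0.621 over its alternatives. It was the 1 gene of the 9 whose tumor-bearing arrays all lay above the tumor-free arrays, which 6.18% of all genes do.

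Differences as large as that of Mkx came with arrays of the tumor-bearing mice that were far apart. For Tnmd the means ± SD were 7.29 ± 0.15 and 8.30 ± 2.75 (n = 3 each), a difference of 1.01 ± 0.99 with a limma adjusted p of 0.77. Cytl1 differed by 1.02 ± 0.49 (adjusted p = 0.551), Cilp by 0.66 ± 0.46 (0.675) and Chodl by 0.55 ± 0.99 (0.886). The differences of Prg4 (0.25 ± 0.46), Thbs4 (0.17 ± 0.76), Cilp2 (-0.11 ± 0.12) and Scx (-0.18 ± 0.18) were smaller than their errors or equal to them. Over the 9 genes the median difference was 0.55, beside -0.02 over all genes tested, and 7 of 9 were positive. This median rests on single arrays: it was -0.06 without tumor-bearing osteoblast replicate 1, 0.09 without replicate 2 and 1.31 without replicate 3, 0.20 without tumor-free osteoblast replicate 2, and 0.91 with array weights.

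Without replicate 3 of the tumor-bearing osteoblasts, Tnmd was higher by 2.59 ± 0.17 (limma adjusted p = 0.00038, with a range of 0.00038 to 0.99 over its alternatives) and Chodl by 2.09 ± 0.31 (0.0413, with a range of 0.0413 to 0.993), with 2 arrays against 3, so 2 of 9 passed, beside 0.176% of all genes, and 6 had an unadjusted p under 0.05, beside 8.84%. Cytl1 (1.68), Cilp (1.31), Thbs4 (1.31) and Mkx (1.16) did not pass, with adjusted p from 0.102 to 0.28. In these 6 genes replicates 1 and 2 lay above the 3 tumor-free arrays, as they did for 11.1% of all genes. The array was singled out after its low values had been seen, and leaving out the lowest array of a group raises that group's mean. So these differences describe the other 5 arrays. Their errors and p-values came from a fit that also held the 6 endothelial arrays. There Tnmd (SD 0.06 without and 0.14 with tumor) and Chodl (0.13 and 0.05) varied little, at values below the 40th percentile. Leaving out tumor-bearing replicate 2 instead gave Tnmd 0.09 at the lowest, and Chodl -0.38.

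**Figure D3:**
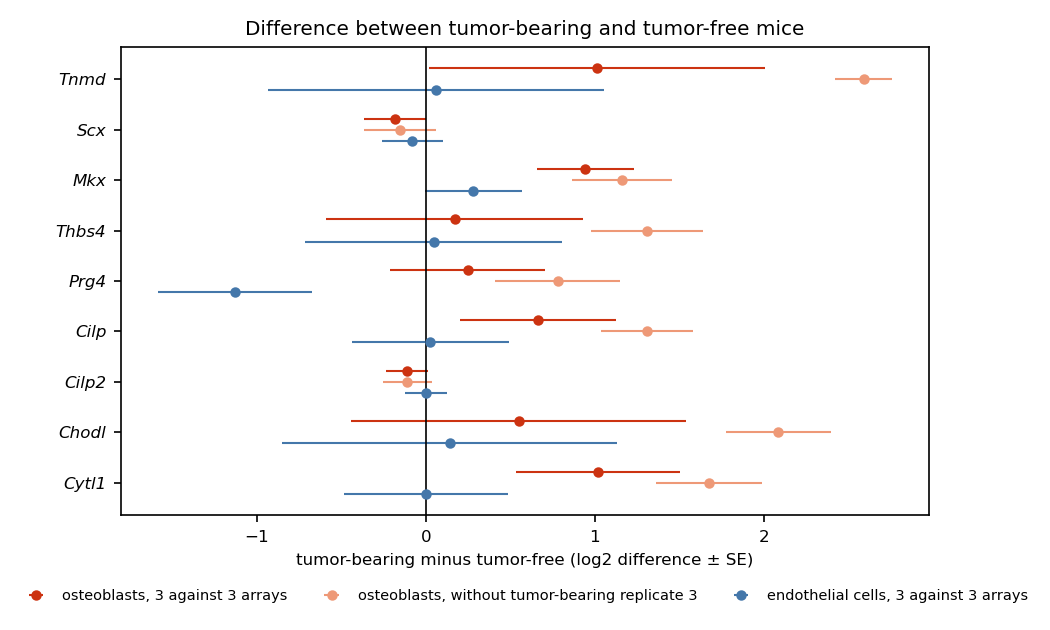
Difference between tumor-bearing and tumor-free mice (log2, points) with its standard error (bars) for the 9 genes in osteoblasts, in osteoblasts without tumor-bearing replicate 3, and in endothelial cells. With all arrays the bars of Tnmd and Chodl (SE 0.99) reach past or near 0, and without that replicate they lie at 2.59 and 2.09.

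In endothelial cells the same comparison gave 0 of 9 genes past a limma adjusted p of 0.05, beside 0.0141% of all genes, and 1 at an unadjusted p under 0.05, beside 4.59%. That gene was Prg4, with 6.44 ± 0.27 in tumor-free and 5.31 ± 0.47 in tumor-bearing mice (mean ± SD, n = 3), a difference of -1.13 ± 0.46 with a limma adjusted p of 0.9999. Its 3 tumor-bearing arrays lay below the 3 tumor-free arrays, which 4.87% of all genes do. The other differences ran from -0.08 (Scx) to 0.28 (Mkx). Of the 3 tumor-bearing endothelial arrays 1 exceeded its 40th percentile for Prg4, so this difference is taken against values at the floor. In both endothelial groups the means of Tnmd, Chodl and Mkx were below the 40th percentile of the arrays. For Mkx, 2 of the 3 tumor-bearing arrays nevertheless exceeded it (6.02 and 5.61, with the other at 4.87). For Thbs4 2 of 3 arrays in each group exceeded it. Differences from the endothelial values of these genes are therefore approximate.

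The tumor effect in osteoblasts minus that in endothelial cells passed for 0 of 9 genes with limma, beside 0.0281% of all genes, and 0 had an unadjusted p under 0.05, beside 6.47%. The largest was that of Prg4, 1.38 ± 0.65 (adjusted p = 0.782). Without replicate 3 of the tumor-bearing osteoblasts Tnmd passed with 2.53 ± 0.23 (adjusted p = 0.00659, with a range of 0.00659 to 0.998 over its alternatives), 1 of 9 genes beside 0.0141% of all.

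How the 9 genes varied among the 6 osteoblast arrays was then described array by array. Their standard deviation over these arrays had a median of 0.87, beside 0.24 over all genes tested, and over the 6 endothelial arrays 0.13, beside 0.19. For Tnmd, Chodl and Thbs4 it was 1.83, 1.77 and 1.33, above that of 99.9%, 99.8% and 99.4% of the genes tested. Scx and Cilp2, at 0.24 and 0.18, lay at or below the middle of all genes.

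Replicate 3 of the tumor-bearing osteoblasts was the lowest of the 6 osteoblast arrays for 5 of the 9 genes (Tnmd, Thbs4, Prg4, Cilp and Chodl), as it was for 19.6% of all genes. Replicates 1 and 2 of the same group were both above the other 4 osteoblast arrays for 6 of 9 genes (Tnmd, Mkx, Thbs4, Cilp, Chodl and Cytl1), as they were for 6.58% of all genes. Replicate 2 was the highest of the 6 arrays for 6 of the 9, as it was for 12.8% of all genes. The mean of replicates 1 and 2 exceeded replicate 3 by 4.74 for Tnmd, 4.61 for Chodl, 3.41 for Thbs4, 1.97 for Cytl1, 1.94 for Cilp and 1.60 for Prg4. For Mkx the same difference was 0.65, for Scx 0.08 and for Cilp2 0.00, beside a median of 0.00 over all genes.

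Of the 46 tested genes of a wider tendon and ligament list, 19 were lowest of the 6 osteoblast arrays in tumor-bearing replicate 3, and of 33 joint surface and synovial genes 11 were, beside 19.6% of all genes. Their median gaps to the mean of replicates 1 and 2 were 0.33 and 0.13, beside 1.94 for the 9 genes. A few genes are given by array, chosen after their values were seen. Kera, which encodes the small proteoglycan keratocan of cornea and tendon, measured 9.39, 9.04 and 9.92 in tumor-free and 10.76, 10.47 and 5.74 in tumor-bearing osteoblasts, so that replicate 3 was again far below the other 5 arrays. Fmod, the fibromodulin gene, had 9.89, 10.00 and 8.21 in tumor-bearing osteoblasts, with tumor-free arrays from 8.50 to 9.65. The collagen gene Col1a1, shared by tendon and bone, lay between 10.80 and 11.30 in the 6 arrays, without a low array. Gdf5, a growth factor gene of the forming joint, lay between 5.47 and 5.69 in all 12 arrays.

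**Figure D4:**
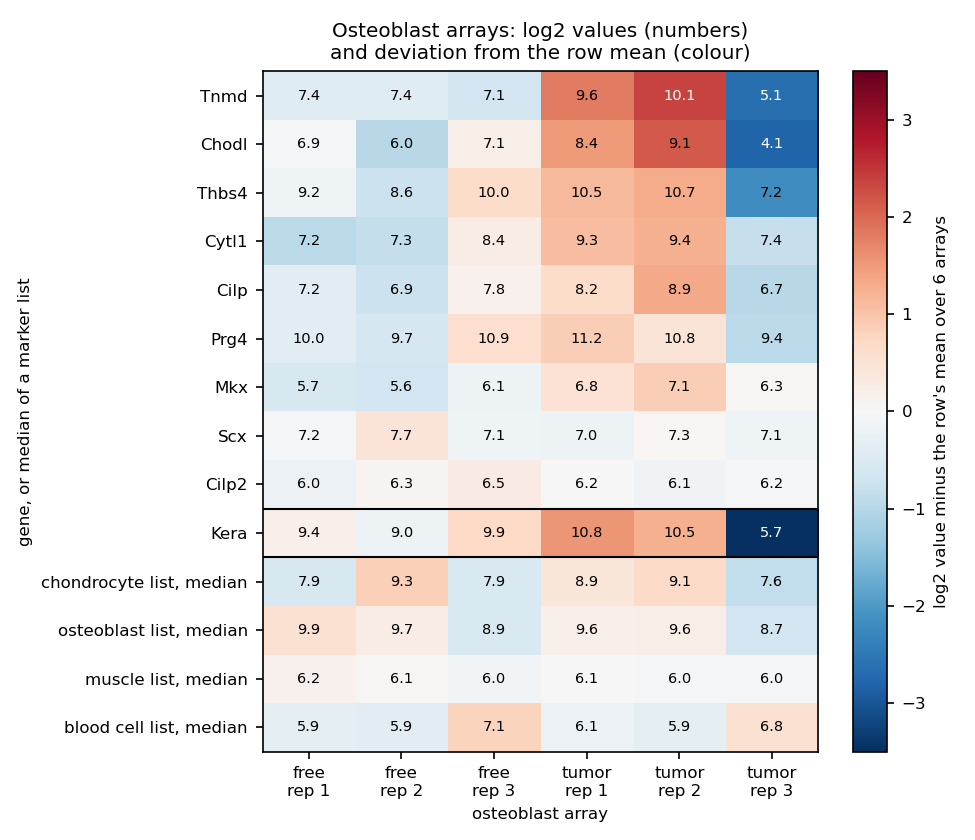
Log2 values (numbers) in the 6 osteoblast arrays for the 9 genes, for Kera, and for the median of 4 marker lists; colour gives the deviation from the mean of the row over these arrays. Tumor-bearing replicate 3 is the bluest column for Tnmd, Chodl, Thbs4 and Kera. The chondrocyte list is also lowest in that array (7.60) and is highest in tumor-free replicate 2 (9.30).

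Markers of other cells varied beside these values. Of 27 chondrocyte markers, which include the aggrecan gene Acan and the chondromodulin gene Cnmd, all were measured and 24 to 27 exceeded the 40th percentile in an osteoblast array; their summed level (log2 of the sum of linear values) ranged from 12.86 to 14.59 in tumor-free and from 12.77 to 14.48 in tumor-bearing osteoblasts, and from 11.07 to 11.34 in endothelial arrays. Their median log2 values were 7.90, 9.30 and 7.92 in tumor-free osteoblasts and 8.88, 9.14 and 7.60 in tumor-bearing osteoblasts. Col10a1, the collagen of hypertrophic cartilage and the brightest of them, measured 8.40, 10.94 and 9.62 in tumor-free and 10.25, 10.34 and 9.92 in tumor-bearing osteoblasts. Tumor-bearing replicate 3 was the lowest of the 6 osteoblast arrays for 14 of the 26 tested chondrocyte markers, whose median gap to the mean of replicates 1 and 2 was 1.08, beside 1.94 for the 9 genes. It was the lowest of the 3 tumor-bearing osteoblast arrays for 24 of the 26 and for 7 of the 9 genes, beside 5108 of the 14217 genes tested. The cartilage markers parted from the 9 genes in tumor-free replicate 2. That array was the highest of the 3 tumor-free osteoblast arrays for 26 of 26 tested chondrocyte markers, beside 29.9% of all genes, but for 1 of the 9 genes, Scx. It was the lowest of the 3 for 5 of the 9 (Mkx, Thbs4, Prg4, Cilp and Chodl), beside 36.1% of all genes. The difference of replicate 2 from the mean of replicates 1 and 3 had a median of 1.31 over the chondrocyte markers and of -0.49 over the 9 genes. It was 2.65 for Acan and 2.11 for Cnmd, with Chodl at -1.04, Thbs4 at -1.01, Prg4 at -0.71, Tnmd at 0.11 and Scx at 0.54.

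Markers of blood cells did not all vary in one direction. The 12 pan-haematopoietic markers had a median of 6.81 in tumor-bearing replicate 3 and of 7.06 in tumor-free replicate 3, against 5.87 to 6.07 in the other osteoblast arrays; their summed level ranged from 10.09 to 11.32 in tumor-free and from 10.33 to 10.75 in tumor-bearing osteoblasts. Ptprc, which encodes CD45, measured 7.28 in tumor-bearing replicate 3 and 5.10 to 6.31 in the other 5, and Tyrobp, the brightest of the list, 9.05 there and 8.33 to 9.93 in the others. The 10 measured osteoblast markers, of which the bone sialoprotein gene Ibsp was the brightest at 12.26 to 12.46, had a median of 8.75 in tumor-bearing replicate 3, against 9.58 and 9.60 in replicates 1 and 2, and summed levels from 13.17 to 13.55 in tumor-bearing and from 13.37 to 13.75 in tumor-free osteoblasts. Among the 9 osteoblast markers tested, tumor-bearing replicate 3 was lower than the mean of replicates 1 and 2 by a median of 0.70. It was the lowest of the 6 osteoblast arrays for 7 of these 9, beside 19.6% of all genes. In tumor-free osteoblasts the 10 measured markers had medians of 9.95, 9.67 and 8.87 in replicates 1, 2 and 3. The summed level of 12 neutrophil markers was 10.73 in tumor-bearing replicate 3, against 11.55 to 13.75 in the other 5 osteoblast arrays, and S100a9, the brightest of them, measured 9.33 against 10.19 to 11.96. The 5 measured erythroid markers (summed level 8.31 against 8.70 to 9.66), marrow stroma and adipocyte markers (11.95 against 12.34 to 12.88) and Schwann cell markers (9.69 against 10.13 to 10.51) were lowest there as well. Fibroblast markers had their highest summed level there (11.68 against 11.17 to 11.53). Their median log2 value of 6.70, however, lay within the 6.62 to 6.80 of the other arrays, and 7 of 12 were lower there than in tumor-bearing replicates 1 and 2. Brightest over the 12 arrays were S100a4 among the fibroblast, Slc4a1 among the erythroid, Cxcl12 among the marrow stroma and adipocyte, and S100b among the Schwann cell markers. The part of these other cells in the differences of the 9 genes was not tested.

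Skeletal muscle, to which tendon attaches, left little signal. Of its 20 markers, 14 or 15 exceeded the 40th percentile in an osteoblast array and 13 to 15 in an endothelial array, and the summed level ranged from 10.53 to 10.81 over the osteoblast and from 10.44 to 10.60 over the endothelial arrays. The markers Myh1, Myl1, Myf5 and Pvalb were below the 40th percentile in all 12 arrays. Tnni2, a troponin gene, was the brightest of the list, with 8.41, 9.02 and 7.01 in tumor-bearing and 8.23, 7.35 and 7.19 in tumor-free osteoblasts, against 6.78 to 7.06 in endothelium.

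The genes with the most similar profiles over the 6 osteoblast arrays were taken by the root mean square difference between log2 values, each gene centred on its own mean. For Tnmd these were Chodl (0.48), the integrin-like gene Itgbl1 (0.66) and Scrg1 (0.71), a gene named for its response in scrapie and expressed in cartilage. Those of Chodl were Tnmd (0.48), Thbs4 (0.49) and Kera (0.60), and those of Thbs4 were Car1 (0.46), Sparcl1 (0.48) and Itgbl1 (0.49). The likeness was not mutual in all pairs: Thbs4 stood at place 6 for Tnmd, and Tnmd at place 39 for Thbs4.

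Itgbl1 measured 7.33, 7.29 and 7.74 in tumor-free and 9.48, 9.22 and 6.32 in tumor-bearing osteoblasts, so that, as for Tnmd, tumor-bearing replicates 1 and 2 were above and replicate 3 below the tumor-free arrays. Cilp, Cytl1 and Prg4 were closer to each other (0.31 to 0.46) than to Tnmd (1.01 to 1.23). Cytl1 had the laminin gene Lama2 (0.30), Cilp (0.31) and Ptx4 (0.34) as its nearest, while Cilp had Fxyd3 (0.14), Lama2 (0.17) and Fxyd2 (0.21), and Prg4 had the protease gene Prss35 (0.15), Lncpint (0.19) and Hrc (0.26). For Mkx the nearest were Atxn3 (0.12), Morn2 (0.12) and Smndc1 (0.16). Of all these nearest genes outside the 9, only Scrg1 and Kera belong to the tendon, joint or cartilage lists. A small difference is easier to reach for genes that vary little, so these values describe 6 arrays and carry no test.

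Promoters are shown for the 3 genes with the widest range, Tnmd, Chodl and Thbs4, and for the related pair of which one varied and one did not, Cilp and Cilp2. The 250 bases before the start of the gene in RefSeq (GRCm38.p6) were searched for the E-box, CANNTG, the letters that basic helix-loop-helix factors such as scleraxis can bind; it reads the same on both strands, and its 6 bases are in capitals. Promoter windows were searched for 6 of the 9 genes, without Scx, Mkx and Prg4.
Tnmd, chrX:133850758-133851007, plus strand: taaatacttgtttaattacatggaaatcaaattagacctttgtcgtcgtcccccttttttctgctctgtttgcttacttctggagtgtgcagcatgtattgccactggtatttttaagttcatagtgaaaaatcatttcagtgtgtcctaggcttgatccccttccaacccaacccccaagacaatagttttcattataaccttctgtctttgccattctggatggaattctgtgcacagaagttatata
Chodl, chr16:78930698-78930947, plus strand: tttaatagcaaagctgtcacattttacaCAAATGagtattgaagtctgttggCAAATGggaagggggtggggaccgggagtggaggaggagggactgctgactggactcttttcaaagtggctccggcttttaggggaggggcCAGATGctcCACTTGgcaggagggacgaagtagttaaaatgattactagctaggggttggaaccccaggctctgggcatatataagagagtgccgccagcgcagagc
Thbs4, chr13:92794819-92795068, minus strand: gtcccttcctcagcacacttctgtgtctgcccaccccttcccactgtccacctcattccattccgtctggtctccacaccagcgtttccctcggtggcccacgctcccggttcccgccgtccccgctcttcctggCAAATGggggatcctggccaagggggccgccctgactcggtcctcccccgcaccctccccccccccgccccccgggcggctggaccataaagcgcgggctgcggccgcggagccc
Cilp, chr9:65264930-65265179, plus strand: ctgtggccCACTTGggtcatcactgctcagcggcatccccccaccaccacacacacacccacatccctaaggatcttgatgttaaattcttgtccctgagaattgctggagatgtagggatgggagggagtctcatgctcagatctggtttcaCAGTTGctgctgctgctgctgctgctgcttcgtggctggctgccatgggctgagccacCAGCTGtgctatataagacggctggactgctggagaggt
Cilp2, chr8:69887393-69887642, minus strand: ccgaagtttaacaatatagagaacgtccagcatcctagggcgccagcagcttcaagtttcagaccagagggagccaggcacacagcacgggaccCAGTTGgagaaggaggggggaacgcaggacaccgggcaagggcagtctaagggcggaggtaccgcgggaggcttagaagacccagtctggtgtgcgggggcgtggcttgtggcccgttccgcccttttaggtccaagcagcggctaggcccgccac
The Chodl window held 4 E-boxes, 222, 198, 107 and 98 bases before the start, as do 3.86% of 27025 promoters at 4 or more. The Cilp window held 3, and those of Thbs4 and Cilp2 held 1 each, while 66.0% of all promoters held at least 1. Tnmd and Cytl1 had none in this window. The form CAGATG, or CATCTG on the other strand, which overlaps the general E-box, was found once, in Chodl, and in 14.5% of all promoters. A match describes letters and not a binding site, and the window is short.

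Other genes of tendon and of the joint were read from 2 lists that do not hold the 9 genes. Of 50 listed tendon and ligament genes, 46 were tested. In the tumor comparison 0 passed in osteoblasts and 0 in endothelial cells by limma at an adjusted p of 0.05, with 4 higher at an unadjusted p under 0.05 in each, beside 9.78% and 4.59% of all genes in either direction. Their median difference was 0.06 in osteoblasts and 0.09 in endothelial cells, beside -0.02 and 0.01 over all genes. Those with the smallest p in osteoblasts were Angptl7, a secreted angiopoietin-like protein, at 1.10 ± 0.29 (limma adjusted p = 0.28) and Smad3, a TGF-beta signal transducer, at 0.56 ± 0.19 (0.363). In endothelial cells they were the asporin gene Aspn at 1.28 ± 0.26 (0.379) and the tenascin gene Tnc at 0.80 ± 0.25 (0.845).

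Angptl7 resembled Mkx in its groups, with 5.42, 5.71 and 6.20 in tumor-free and 7.30, 7.14 and 6.21 in tumor-bearing osteoblasts, groups that touched without overlap. Between the cell types 28 of the 46 tendon and ligament genes were higher in osteoblasts and 0 lower, in tumor-free and in tumor-bearing mice alike by count, beside 5.38% and 4.89% of all genes higher.

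Of 34 joint surface and synovial genes, 33 were tested and 0 passed in either tumor comparison by limma, with 3 higher and 1 lower in osteoblasts and 1 higher in endothelial cells at an unadjusted p under 0.05, beside the same 9.78% and 4.59%. Their median difference was 0.01 in osteoblasts and 0.06 in endothelial cells. The hyaluronan receptor gene Cd44 differed by 0.78 ± 0.24 (limma adjusted p = 0.337) and the transcription factor gene Erg by -0.88 ± 0.35 (0.452) in osteoblasts. Erg, also listed as an endothelial marker, measured 8.97 to 9.31 in endothelial cells. Its osteoblast values were 6.37, 8.10 and 7.74 in tumor-free and 6.35, 6.45 and 6.78 in tumor-bearing mice. Cd44 was highest in tumor-bearing replicate 3 (8.74, against 7.86 and 7.84 in replicates 1 and 2), the array in which Tnmd and Chodl were lowest. In endothelial cells the protease gene Htra1 differed by 0.87 ± 0.36 and the clusterin gene Clu by 0.79 ± 0.36 (both with an adjusted p of 0.9999). Between the cell types 9 of the 33 were higher and 5 lower in osteoblasts of tumor-free mice, and 11 and 5 in those of tumor-bearing mice, beside 5.38% and 4.89% of all genes higher and 7.0% and 5.68% lower.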

How the data were processed

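Per the labels' protocols, a Pico Pure kit gave RNA from 5000 sorted cells, which was amplified with NuGEN Ovation reagents and labelled with biotin. The authors deposited log2 values, processed with the package affy per the submitters' processing notes; version, summary method and normalization were not given in the sources used here. Amplification can distort the proportions of transcripts, and values near the floor understate folds. Of 34760 probe sets, 21640 had 1 symbol, 1321 several and 11799 none. Symbols were updated through Entrez numbers in a RefSeq table (GRCm38.p6), which matched 21553, and the probe set with the highest mean stood for a gene (19937 genes). Genes above the 40th percentile of an array in at least 3 of 12 arrays were tested (14217).

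A model with a mean for each of the 4 groups was estimated from the 12 arrays together (limma 3.58.1, R 4.3.3, eBayes, prior degrees of freedom 2.36); p-values are two-sided and adjusted by Benjamini-Hochberg over all genes tested. The limma fit was tested on simulated data for the tumor comparison in osteoblasts, and the other steps were not. The 9 genes, the marker lists and the rules were chosen with earlier results of these data known. Named were the 9 genes, in each tumor contrast up to 4 passing genes of the tendon and joint lists or else the 2 with the smallest p, the 3 nearest profiles of each of the 9 genes with a range of at least 1, and sort and identity genes and the brightest gene of each marker list given; Kera, Fmod, Gdf5, Acan and Cnmd were added after their values were seen. Deviations from the group means were hardly correlated between arrays of equal replicate number (-0.08 to 0.07), so the numbers were not taken as pairs. Such correlations cannot exclude shared mice or a shared batch. The p-values measure the spread between these arrays, whose number limits the precision. No 2 arrays were identical. As alternatives, arrays were quantile normalized or centred on their medians, the filter was dropped or raised to the 60th percentile, and further fits used means of probe sets, trend and robust estimation, array weights, only the groups compared, the replicate block and each array left out in turn.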

Additional observations from a re-analysis of the deposited data

How the results depend on the processing

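The count of the 9 genes passing in osteoblasts between tumor-bearing and tumor-free mice was 0 in the fit of all arrays and 0 to 2 with 1 array left out, and the difference of tumor effects gave 0 to 1; in both the higher count came without osteoblast tumor-bearing replicate 3. In endothelial cells it was 0 under each of 21 alternatives. Between the cell types the count ranged from 2 to 6 in tumor-free and from 3 to 7 in tumor-bearing mice with 1 array left out, and was 6 and 2 when each comparison was fitted on its own 6 arrays. The replicate block left the counts in the tumor comparisons at 0 and those between the cell types at 2 and 4. Over all genes it reduced the calls in osteoblasts from 8 to 1, and whether equal numbers share mice or a batch is not known. Over all genes the calls in osteoblasts ranged from 0 (only its own 6 arrays) to 25 (without tumor-bearing replicate 3), and were 1 with array weights, while those in endothelial cells ranged from 2 to 6 and those of the difference of effects from 0 to 7.

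Of 374 values of single genes under alternatives, 351 kept their direction and side of the threshold, 2 passed newly (Tnmd and Chodl, above) and 21 changed sign, 20 of them with 1 array left out. In osteoblasts these were Thbs4 (-0.44 to 1.31), Prg4 (-0.13 to 0.78), Cilp2 (-0.24 to 0.0085) and Chodl (-0.38 to 2.09). In endothelial cells, where the values are close to 0, they were Tnmd (-0.0028 to 0.14), Scx (-0.20 to 0.090), Thbs4 (-0.052 to 0.18), Cilp (-0.056 to 0.12), Cilp2 (-0.035 to 0.031, and -0.0191 with array weights) and Cytl1 (-0.074 to 0.12); the cause was not tested. Mkx and Cilp2 were not tested under the 60th percentile filter, which they did not pass. The median spread over osteoblast arrays was 0.87 as deposited and 0.86 after quantile normalization. Signals near the floor limit Tnmd, Chodl, Mkx and Thbs4 in endothelial cells and Prg4 in those of tumor-bearing mice.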
